A study of Mus musculus with 7 samples.

Results

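Binding of JUNB, which joins other bZIP proteins to form AP-1, was examined around 10 genes that damp or feed the MAP kinase cascade: the phosphatase genes Dusp1, Dusp4, Dusp5 and Dusp6, the inhibitor genes Spry2, Spry4 and Spred1, and the EGF receptor ligand genes Hbegf, Areg and Ereg. The genes were chosen by these roles. Peaks from the 4 JUNB lists were joined wherever they shared 1 bp or more, and each joined region went to the protein-coding gene with the nearest end within 100 kb. The 10 genes, of 21900, owned 29 of 12655 regions. The method was CUT&RUN, in which a nuclease tethered to an antibody cuts out the DNA around a bound protein. The cells were iMGT-Myh6-eGFP-MEF, a mouse embryonic fibroblast line in which doxycycline induces Mef2c, Gata4 and Tbx5, together called MGT, and which has an eGFP reporter under Myh6. The siChst7 group (2 JUNB libraries) was transfected with an siRNA against Chst7, a chondroitin sulfate sulfotransferase gene, and the siControl group (2 JUNB libraries) with a control siRNA. MGT was induced in every library with 1 μg/mL doxycycline in medium with fetal bovine serum, and cells were harvested at day 1 and frozen. No group without MGT induction is among the 7 samples. The titles and treatment labels name siChst7, whereas the treatment protocol names siJunb and siH1f0 beside siControl and not siChst7. The comparison asks whether JUNB was found at other places when Chst7 was targeted.

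The MAP kinase cascade carries growth factor signals from receptors such as EGFR through Ras and a chain of kinases to ERK. ERK switches on immediate-early genes, among them AP-1 subunits, and also genes whose products shut the cascade down again, which makes a negative feedback loop. Dual-specificity phosphatases (Dusp) remove the activating phosphates from MAP kinases, and Sprouty and Spred proteins restrain the step from receptor to Ras and Raf. Hbegf, Areg and Ereg encode membrane-anchored ligands that are released by ADAM proteases and activate EGFR, which feeds the cascade. In fibroblasts, serum and growth factors are classic inducers of many of these genes.

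The bases before the start of Dusp1, Areg and Dusp6 are shown because Dusp1 and Areg hold a cAMP response element, and the Dusp1 and Dusp6 stretches run into JUNB regions. Sequences are from RefSeq (GRCm38.p6, the assembly of mm10), 5′ to 3′ on the gene's strand, and end at the base before the transcription start. Capitals mark the element in Dusp1 and Areg and the bases inside a JUNB region in Dusp6.
Dusp1 (chr17:26508473-26508722, minus strand): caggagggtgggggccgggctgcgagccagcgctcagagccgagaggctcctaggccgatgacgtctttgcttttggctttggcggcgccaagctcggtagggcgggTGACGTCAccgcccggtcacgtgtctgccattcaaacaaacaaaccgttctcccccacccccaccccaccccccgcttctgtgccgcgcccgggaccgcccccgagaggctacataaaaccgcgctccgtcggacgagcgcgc
Areg (chr5:91139349-91139598, plus strand): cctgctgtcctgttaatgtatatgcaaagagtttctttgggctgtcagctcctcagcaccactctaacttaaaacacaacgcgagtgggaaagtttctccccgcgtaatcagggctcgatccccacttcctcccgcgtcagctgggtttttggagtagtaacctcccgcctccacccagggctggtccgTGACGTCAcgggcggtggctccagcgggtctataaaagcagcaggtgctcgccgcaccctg
Dusp6 (chr10:99262981-99263230, plus strand): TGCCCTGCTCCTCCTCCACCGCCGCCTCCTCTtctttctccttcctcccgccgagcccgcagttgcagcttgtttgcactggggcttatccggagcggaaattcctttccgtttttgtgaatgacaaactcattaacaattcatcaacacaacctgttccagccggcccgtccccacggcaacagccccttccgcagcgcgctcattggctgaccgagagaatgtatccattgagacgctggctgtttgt

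The RefSeq promoter table held windows of 250 bases before and 50 after the start for 6 of the 10 genes: Dusp1, Dusp5, Dusp6, Spry2, Spred1 and Areg. The AP-1 element TGANTCA, searched on both strands, was in 0 of these 6 windows, against 6.99% of the 21263 windows of protein-coding genes. The cAMP response element TGACGTCA, which does not contain the AP-1 letters and reads the same on both strands, was in the windows of Dusp1 and Areg and in 2.23% of all windows. The Dusp1 element began 143 bases before the start, 41 bases from the edge of the JUNB region there, and 67 of the 250 printed bases lay in that region. The Areg element began 61 bases before the start, and no JUNB region reached that window. In Dusp6, 32 of the 250 bases lay in a region called in 1 library. Most member regions lay away from these windows, and their sequence was not analysed here.

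The siChst7 lists held 10163 and 4735 peaks and the siControl lists 6469 and 5827 peaks, in replicate order. The siChst7 lists thus differed from each other more than from the siControl lists, and siChst7 replicate 1 was the longest. Depth per library is unknown here beyond the 30 M reads that the labels state. The labels number the libraries as biological replicates but do not say that they came from separate cultures, so a p-value covers only the spread among these libraries, part of which may be technical. Values from the 3 IgG libraries were not used here, and antibody background was therefore not measured. The data hold no expression, and the cell type was looked at only through regions: 4 of 10 fibroblast genes (Col1a1, Thy1, Vim and Fbn1), 4 of 6 endothelial genes (Cdh5, Kdr, Vwf and Erg), 0 of 8 cardiomyocyte genes and 0 of 6 macrophage genes owned a region in all 4 lists, beside 8.32% of all genes, so that the counts of 0 say nothing of cell type. In both siChst7 lists 0 of the 6 macrophage genes had a region, beside 11.3% of all genes, and in both siControl lists 3 had, beside 11.0%. For fibroblast genes these counts were 4 and 6, for endothelial genes 4 and 4, and for cardiomyocyte genes 0 and 0. The part of these counts in the results was not tested. Regions near a gene do not show that the gene is expressed.

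JUNB regions stood near most of the phosphatase and ligand genes. Of the Sprouty and Spred genes only Spry2 had a region in any list, beside 25.1% of all genes. Counts this small cannot be set apart from the background. All 4 phosphatase genes and all 3 ligand genes owned a region called in all 4 libraries, and Spry2, Spry4 and Spred1 owned none. That is 7 of 10 genes, beside 8.32% of all 21900 genes. For regions in both siChst7 libraries the count was 7 of 10, beside 11.3% of all genes, and for regions in both siControl libraries it was also 7 of 10, beside 11.0%. Dusp1 and Hbegf owned 4 regions in all 4 lists each, a number that 0.142% of all genes reached. The genes were chosen with earlier results of these data known, and no test was made of these shares. When only gene bodies with 5 kb on each side were used, 4 of the 10 genes had a region in both siChst7 libraries and 4 in both siControl libraries; the siChst7 count was 4 within 20 kb, and the siControl count was 4 at 50% reciprocal overlap of peaks. When ends of non-coding genes were counted too, 17 of the 29 regions stayed with the 10 genes.

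**Figure D1:**
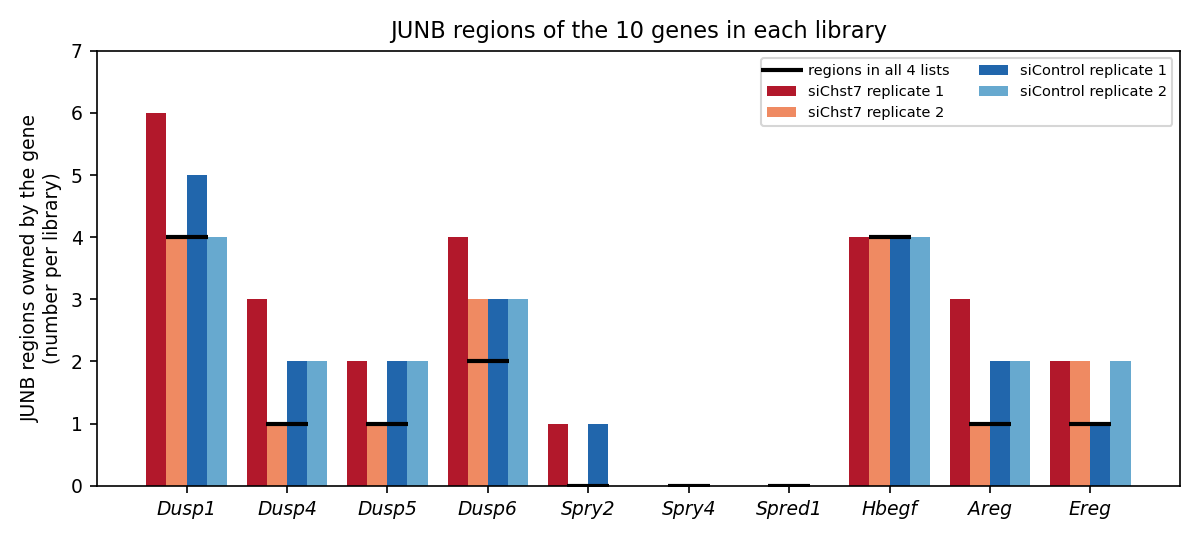
Number of JUNB regions (vertical axis) that each of the 10 genes owned in each siChst7 and siControl library (bars); black marks give the regions called in all 4 lists. Dusp1 and Hbegf reached 4 common regions, and Spry4 and Spred1 had no region in any library.

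Of the 29 regions of these genes, 14 were called in all 4 lists, which is 48.3% (95% interval 29.4 to 67.5 by the exact Clopper-Pearson method, which covers counting error alone), beside 22.0% of all regions. Regions in 1 list made up 8 of 29, beside 46.7% of all regions, and 4 of these were in siChst7 replicate 1, beside 29.2%. Another 2 regions were in 3 lists, beside 13.3% of all regions. The remaining 5 regions were called in replicate 1 of siChst7 and of siControl and in neither replicate 2, beside 6.41% of all regions. The other pairs that mix the groups held 0 of 29 regions of their own, beside 5.06% of all regions for siChst7 replicate 1 with siControl replicate 2, 0.553% for siChst7 replicate 2 with siControl replicate 1 and 0.419% for replicate 2 of each group. Each of the 5 regions belonged to a different gene: Dusp1, Dusp4, Dusp5, Dusp6 and Spry2. When peaks were joined only at 50% reciprocal overlap, 16.3% of 43 member regions were in all 4 lists, beside 12.0% of all regions, and when summits with 100 bp on each side were joined, 19.5% of 41 member regions were, beside 12.5%. The stricter joins thus brought the members closer to all regions. The count of 14 was 8 of 25 member regions at a fold of at least 5 (32%, beside 21.2% of all regions). Within 20 kb it was 8 of 18 (44.4%, beside 22.0% of all regions).

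**Figure D2:**
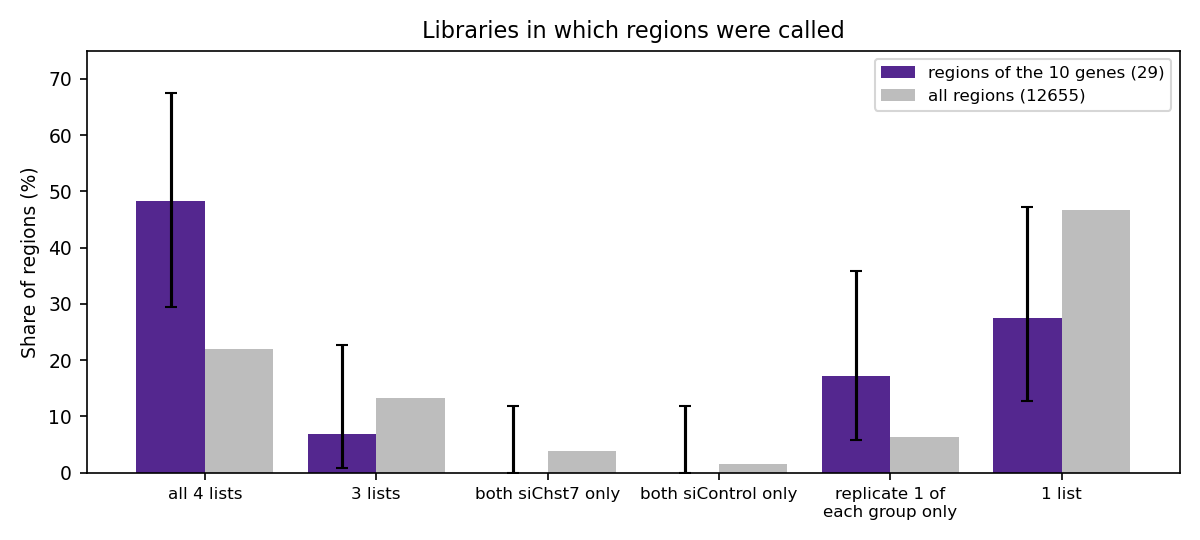
Share of regions in percent (vertical axis) by the libraries in which they were called, for the 29 regions of the 10 genes (dark bars, with exact 95% intervals for counting error) and for all 12655 regions (grey bars). The dark bar is above the grey bar for all 4 lists (48.3% and 22.0%), and both bars of regions confined to a siRNA group are at 0 for the 10 genes.

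Dusp1 encodes a nuclear phosphatase that acts on ERK and on the stress-activated MAP kinases. It owned 6, 4, 5 and 4 regions in siChst7 replicates 1 and 2 and siControl replicates 1 and 2. All 6 lay before its start, within 25.6 kb. Its 4 common regions spanned 25.1 kb, and 2 of them had the highest folds of all member regions in each of the 4 lists. A region 6.2 kb from the gene end (chromosome 17, 26513930 to 26515585) had fold enrichments of 22.8 and 15.2 in the siChst7 lists, against 20.2 and 17.7 in the siControl lists. Fold enrichment is the authors' value for a peak over local background. Each of these values stood between the 96.1 and 98.4 percentile of its own list, counted from the weakest peak, and the groups overlapped. A region 22.0 kb from the gene end (26529403 to 26531795) was the widest of all member regions at 2393 bp, and had folds of 21.9 and 15.0 in the siChst7 lists, against 28.3 and 16.8 in the siControl lists. In both groups replicate 1 was the higher. The promoter region (26508656 to 26510368), whose median summit lay 568 bp from the gene end, had folds of 11.2 and 8.83 in siChst7, against 12.2 and 8.08 in siControl. The fourth region (26533414 to 26534467) had 12.1 and 4.94 in siChst7, against 10.3 and 11.4 in siControl, and siChst7 replicate 2 stood low.

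Dusp6 encodes the cytoplasmic phosphatase that is selective for ERK. It owned 6 regions, of which 2 were common, and both lay before the start of the gene. The region 20.8 kb from the gene end (chromosome 10, 99241743 to 99242926) had folds of 15.6 and 9.84 in the siChst7 lists, against 11.3 and 4.97 in the siControl lists. The strongest peaks of the 4 lists had summits within 20 bp of each other there. The groups overlapped. The region 25.7 kb from the gene end (99237066 to 99238313) lies inside the non-coding gene Gm34777 and had folds of 7.35 and 3.75 in siChst7, against 6.90 and 10.0 in siControl. A region 261 bp from the start of Dusp6 (99262815 to 99263012) was called in siControl replicate 2 alone, with a fold of 4.51.

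Dusp5 and Dusp4 encode nuclear phosphatases, and Dusp5 is selective for ERK. Dusp5 had its common region inside the gene, 2.7 kb after the start (chromosome 19, 53530981 to 53532703). The folds there were 15.6 and 10.1 in the siChst7 lists, against 9.02 and 8.70 in the siControl lists, and the groups did not overlap. Of all common regions 21.9% had both siChst7 folds the higher. Dusp4 had its common region 46.9 kb from the gene end (chromosome 8, 34760486 to 34761075), with folds of 7.12 and 5.65 in siChst7, against 7.09 and 9.32 in siControl. The region inside Dusp4 (34815145 to 34815745) was called in siChst7 replicate 1 alone, with a fold of 5.81. The region nearest to the gene body was thus called in all 4 lists for Dusp1 and Dusp5 and in a single list for Dusp4 and Dusp6.

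**Figure D3:**
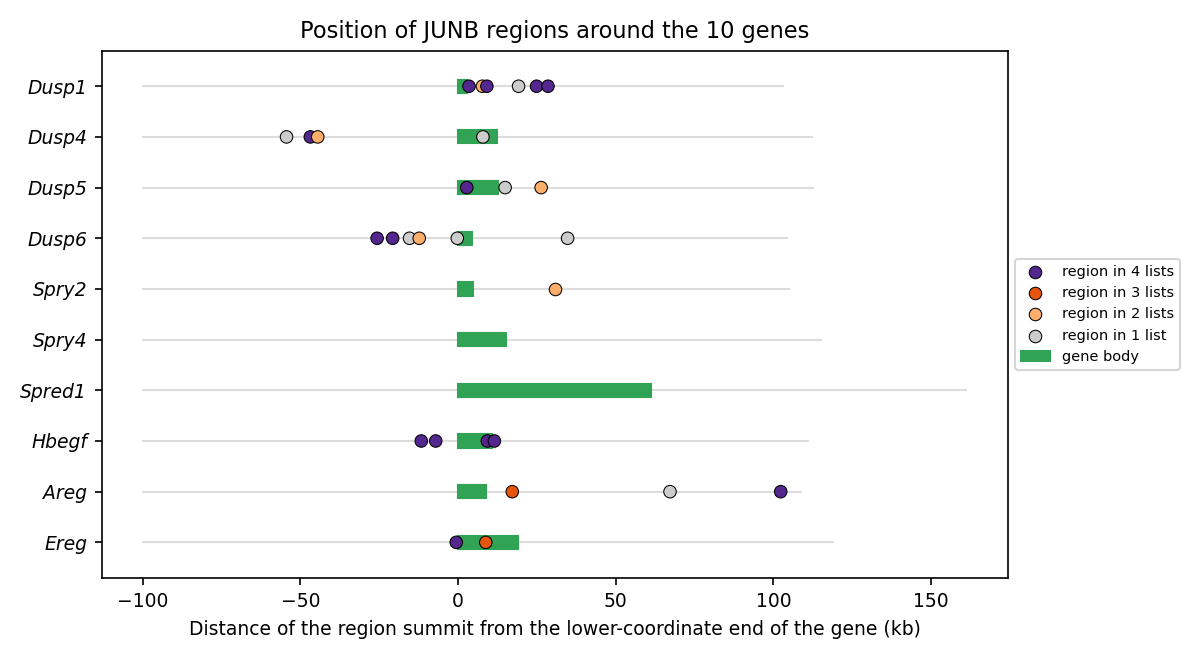
Position of each JUNB region summit relative to the lower-coordinate end of its gene (horizontal axis, kb), with the gene body in green and points coloured by the number of lists that called the region. Dusp1 regions lie within 25.6 kb on a single side, the common Dusp4 region lies 46.9 kb away, and Spry4 and Spred1 have none.

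Sprouty and Spred genes had the fewest regions. With 25.1% of all genes owning a region in any list, counts this small cannot be set apart from the background. Sprouty proteins are induced by growth factors and limit Ras and ERK signalling from receptor tyrosine kinases. Spry2 owned 1 region, 26.0 kb before its start (chromosome 14, 105922685 to 105922948). It was called in siChst7 replicate 1 with a fold of 8.64 and in siControl replicate 1 with a fold of 8.38, and in neither replicate 2. The length of genome nearest to Spry2 was 205 kb, the longest of the 10 genes, against a median of 46.4 kb over all genes. Spry4 owned 0 regions, and the region nearest to its gene body lay 238 kb away. Spred1, whose product brings the Ras inhibitor neurofibromin to the membrane, owned 0 regions. The nearest was 67.2 kb away, called in 1 list, and belonged to Fam98b. The nearest region in all 4 lists was 103 kb from Spred1. An absent region can hold signal below the threshold of a list.

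The EGFR ligand genes each had a common region. Hbegf encodes heparin-binding EGF-like growth factor, which binds EGFR and heparan sulfate. It was the member with the most even lists, with the same 4 regions in each of the 4 libraries, over 23.2 kb. Only 42.2 kb of genome was nearest to Hbegf. The region inside the gene (chromosome 18, 36513326 to 36514696) had folds of 11.2 and 6.72 in the siChst7 lists, against 12.2 and 13.0 in the siControl lists. Both siChst7 values were below both siControl values, as at 12.6% of all common regions. The region 7.1 kb from the gene end (36497550 to 36499566) had 9.12 and 10.0 in siChst7, against 7.12 and 5.58 in siControl. There both siChst7 values were the higher, as at 21.9% of all common regions. The region at 0.6 kb (36516000 to 36516958), inside the non-coding gene Gm41698, had 7.12 and 6.94 in siChst7, against 5.80 and 4.97 in siControl, and the region at 11.7 kb (36492455 to 36494032) had 11.3 and 6.04 in siChst7, against 4.22 and 8.70 in siControl. The regions of this locus thus differed in order between the groups.

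Areg and Ereg encode amphiregulin and epiregulin and are neighbours on chromosome 5. The common region of Areg lay 93.5 kb after the gene (91241570 to 91241998), near the limit of 100 kb, and had folds of 6.82 and 5.42 in siChst7, against 6.33 and 6.77 in siControl. The region 8.3 kb from the Areg end (91156618 to 91157145) was in 3 lists. It had a fold of 5.68 in siChst7 replicate 1, against 4.76 and 6.29 in the siControl lists, and was missing from siChst7 replicate 2. The common region of Ereg (91073526 to 91074803) reached over the lower-coordinate end of the gene at 91074617, and its median summit lay 0.6 kb outside Ereg and inside the non-coding gene Gm19610. It had folds of 6.94 and 8.02 in the siChst7 lists, against 4.64 and 4.97 in the siControl lists. Both siChst7 values were above both siControl values, at the 56.1 and 68.4 percentile of their lists against 8.44 and 14.9. The summits of the strongest peaks of the 4 lists were up to 750 bp apart there, so the folds may not belong to a single site. Of all common regions 21.9% had both siChst7 folds the higher. The region wholly inside Ereg (91083008 to 91083537) was called in both siChst7 lists, with folds of 7.76 and 4.79, and in siControl replicate 2 alone of its group, with 3.64. Ereg was the only one of the 10 genes with more regions in both siChst7 lists (2) than in both siControl lists (1), and Areg was the reverse (1 and 2).

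**Figure D4:**
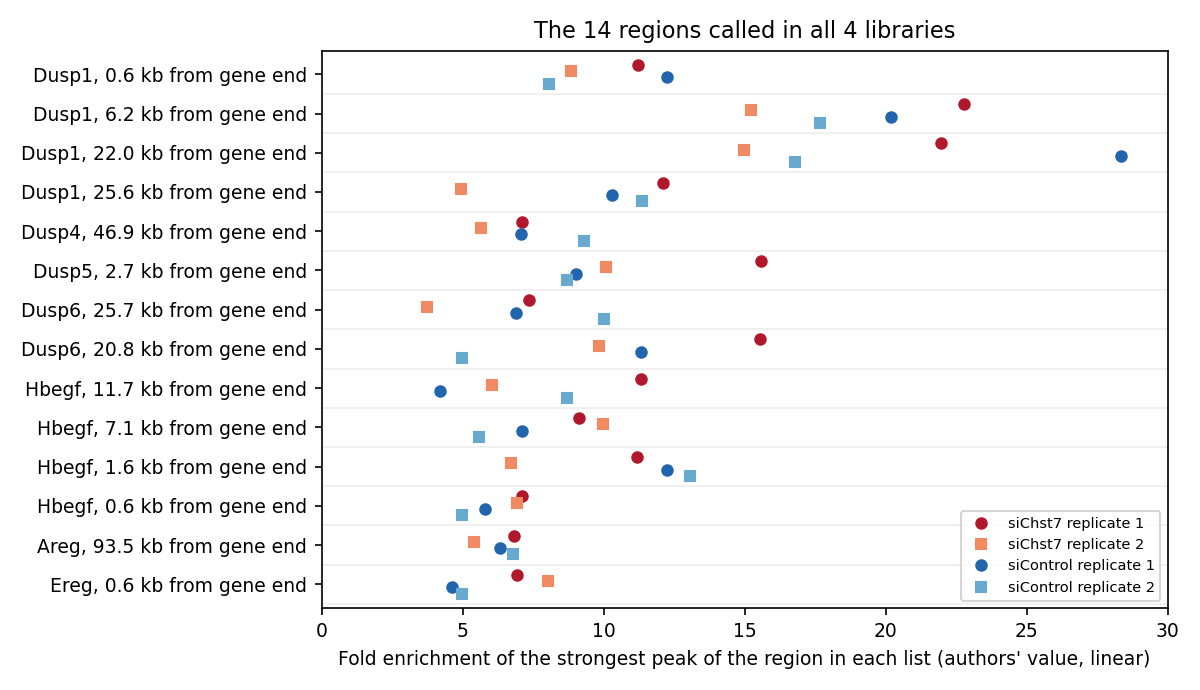
Fold enrichment of the strongest peak in each list (horizontal axis, authors' linear values) for the 14 member regions called in all 4 libraries, with siChst7 replicates in red shades and siControl replicates in blue shades. The Dusp1 regions at 6.2 and 22.0 kb stand highest, and the groups are apart at 5 regions: Dusp5, Ereg and 3 of Hbegf.

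The number of regions of the 10 genes differed less between the siRNA groups than between the siChst7 libraries, in a design too small to show a separation. The siChst7 libraries held 25 and 16 member regions (mean 20.5 ± 6.36, SD, n = 2), and the siControl libraries 20 and 19 (mean 19.5 ± 0.707, SD, n = 2). The difference, siChst7 minus siControl, was 1 region (two-sided exact permutation test, p = 1, where the smallest possible p is 0.333). It was −4 without siChst7 replicate 1, whose list was the longest, and 5.5 without siChst7 replicate 2, whose list was the shortest. Both siChst7 lists held 15 of the 29 regions, beside 31.7% of all regions, and both siControl lists also held 15, beside 31.1%, with 14 in common. Of the 29, 0 were confined to the siChst7 pair, that is called in both of its lists and in neither siControl list, beside 3.88% of all regions. Likewise 0 were confined to the siControl pair, beside 1.60%. At those rates 29 regions would hold 1.13 and 0.465 such regions, and a count of 0 of 29 allows a share of up to 10.3% by the limit of 3 counts (11.9% by the exact 95% interval), so a difference of the size seen over all regions was not detectable here. The call at Ereg depended on the threshold of the lists. With equal list length both Ereg regions were confined to the siChst7 pair. At a q of at most 0.001 this held for the region wholly inside the gene, and at a fold of at least 5 for the region at its end. When summits with 100 bp on each side were joined, the 1 such region was at Dusp1 and not at Ereg. The shares over all regions were not computed under these settings, so these counts cannot be set apart from the background.

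Over the 14 common regions, both siChst7 folds were above both siControl folds at 4 regions (Dusp5, Ereg and 2 of Hbegf), beside 21.9% of the 2785 regions in all 4 lists, and below them at 1 (Hbegf), beside 12.6%. Folds come from lists made separately and were not tested between libraries. In the regions where the groups were apart, the strongest peaks of the 4 lists had summits spread over 64 to 750 bp, so a fold may come from different parts of a region. Within their lists the common member regions stood near other common regions. Their median fold percentile was 85.5 and 61.5 in the siChst7 lists and 65.8 and 76.3 in the siControl lists, beside 83.3 and 66.3 in siChst7 and 74.2 and 70.9 in siControl for all common regions. The members were higher in siChst7 replicate 1 and siControl replicate 2 and lower in the other two lists.

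Other features of the member regions and genes were set beside those of all regions and genes. Only 4 of 29 summits lay inside a protein-coding gene, beside 53.6% of all regions, and these were in Dusp4, Dusp5, Hbegf and Ereg. The 10 genes had a median length of 11.6 kb, against 17.1 kb over all genes, and a median of 114 kb of genome nearest to them, against 46.4 kb. Per Mb of nearest genome the 10 genes held 25.6 regions, of which 12.3 were common, and all genes held 6.49, of which 1.42 were common. These values restate the counts of regions given above by length of genome and are not separate from them. The common member regions had a median width of 1325 bp, against 925 bp over all common regions. The median distance between the outermost summits of the 4 lists was 334 bp in common member regions, against 186 bp in all common regions, with a range of 20 to 1038 bp. The widest spread was in the Dusp1 promoter region. Over regions in any list, the share near gene ends was close to that of all regions. There 4 of the 29 summits lay within 1 kb of a gene end, beside 12.1%, and these were at Dusp1, Dusp6, Hbegf and Ereg. Of the 14 common member regions 3 lay so near, beside 7.94% of all common regions. The median distance to a gene end was 9.39 kb in common member regions, against 19.7 kb in all common regions. All regions include those beyond 100 kb of a gene end, where a member region cannot lie by the rule. Of the 2785 common regions, 2411 lay within 100 kb. The distances and the shares near gene ends are therefore not on an equal footing, and the member median is shorter in part by the rule.

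Other genes of the pathway were taken by role. Of 41 such genes, 10 owned a region in all 4 lists, beside 8.32% of all genes, 11 in both siChst7 libraries, beside 11.3%, and 12 in both siControl libraries, beside 11.0%. The groups by role are small, and no test was made of them. Among 6 other MAP kinase phosphatase genes, Dusp2, Dusp10 and Dusp16 did so, and Dusp10, whose product acts on stress-activated kinases, had 4 common regions. Among 4 other Sprouty and Spred genes, Spred2 did. Of 3 genes for inhibitors of the receptor itself, Errfi1 and Lrig1 did. Errfi1, which binds and blocks EGFR, had a region 54.2 kb from the gene end (chromosome 4, 150798686 to 150800460) with folds of 36.6 and 27.1 in the siChst7 lists, against 21.5 and 26.9 in the siControl lists. Both siChst7 values were above both siControl values at this region and at 6 of the 15 common regions of the 41 genes in all, beside 21.9% of the regions in all 4 lists, and below them at 0, beside 12.6%. The Ras inhibitor genes Nf1 and Rasa1 were the 2 of 7 adaptor and Ras regulator genes with a common region. Among 5 other ligand genes, Tgfa had a common region, and of 2 genes for proteases that shed ligands, Adam17 did. Of 4 receptor genes, Egfr among them, 0 owned a region in all 4 lists, and of 10 Ras, Raf, MEK and ERK genes also 0, and with 8.32% of all genes owning one, counts this small cannot be set apart from the background. A region at Dusp8 (chromosome 7, 142083853 to 142085277) was called in both siChst7 lists, with folds of 6.92 and 6.25, and in neither siControl list. It was the only such region for either siRNA among the 57 regions of the 41 genes, beside 3.88% of all regions confined to the siChst7 pair and 1.60% confined to the siControl pair.

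**Figure D5:**
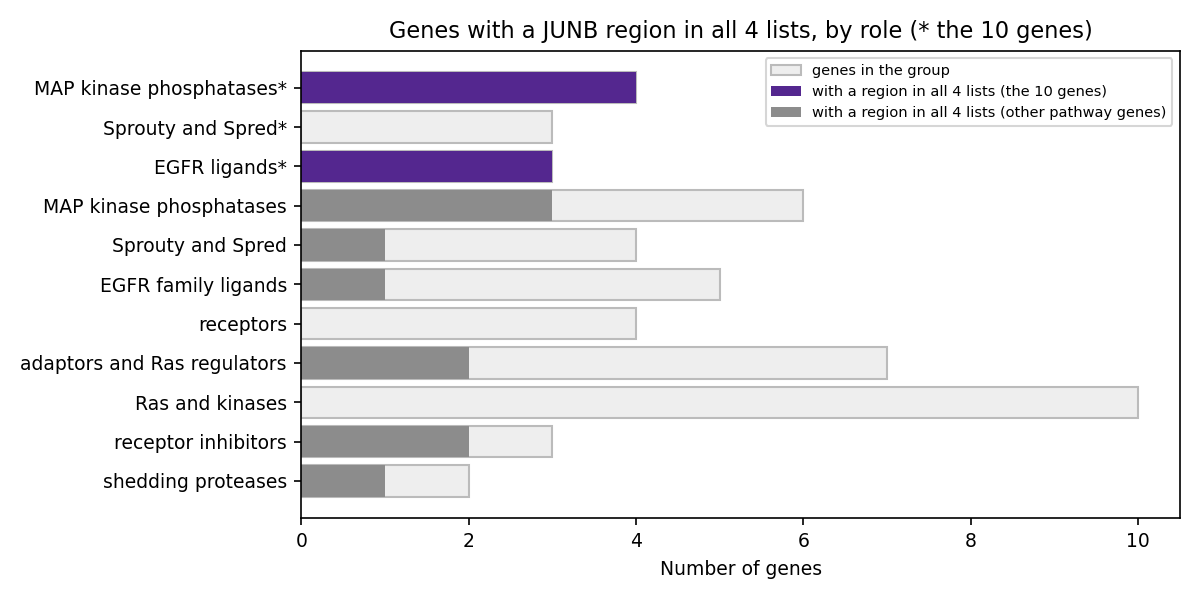
Number of genes (horizontal axis) in each role group, light for all genes of the group and dark for those with a JUNB region in all 4 lists; asterisks mark the 10 genes and the other rows are the 41 further pathway genes. The dark bars fill the phosphatase and ligand groups of the 10 genes. They are absent for the Sprouty and Spred group of the 10 genes, for receptors and for Ras and kinases. Of all genes 8.32% owned a region in all 4 lists.

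Over the 4 libraries, the genes whose numbers of regions were most like those of Dusp1 were Mical2, Gsap and Cdc42ep3, each with 6 and 4 regions in the siChst7 lists and 5 and 4 in the siControl lists, a summed difference of 0. Sbno2 and Cebpb followed with a summed difference of 1. Of these 5 genes, Gsap had 4 common regions, as Dusp1 did, Mical2 and Cebpb had 3, Cdc42ep3 had 2 and Sbno2 had 1. The nearest genome of the first 3 was 169 to 221 kb, that of Sbno2 54.2 kb and that of Cebpb 115 kb, against 58.7 kb for Dusp1.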

How the data were processed

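JUNB CUT&RUN peak lists of 4 libraries (siChst7 and siControl, 2 each) were used. Reads were processed with Bowtie2 and MACS3 on mm10, per the submitters' processing notes, which state no settings. Per the peak names in the deposited lists, peaks were called for each library separately. Each deposited peak has a summit position, a score, a fold enrichment, which is a ratio over local background, and a p-value and q-value as −log10, all by the authors' peak caller. The control for peak calling is not stated. The lowest −log10 q was near 2 in each list, and folds were ranked within lists, set side by side across lists and not tested between them.

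Peaks overlapping by at least 1 bp were joined, and the median summit of a region decided its gene. Distances run to either end of 21900 protein-coding genes of RefSeq GRCm38.p6. Coordinates are 1-based. The promoter table gave starts for 17492 of these genes. For starts within 100 kb, genes without one kept both ends. The motif search was made in promoter windows, because sequence elsewhere was not analysed here. All 71 entries of the other gene lists matched.

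The 10 genes, the lists and the tests were chosen with earlier results of these data known. All 10 genes were named, with their best region (most lists, then highest median fold percentile), regions in 2 or more lists at will, regions of a single siRNA group, pathway genes with a region in all 4 lists, and the 5 genes most like the member with the most common regions by summed absolute differences. Regions in a single list near Dusp4 and Dusp6 and the Dusp8 and Errfi1 regions were named after their values were seen. The procedure was tested on simulated lists of isolated peaks close to gene ends, with nearly equal summits. Distant regions and joins of several peaks of a list were not covered by that test. Computations used pandas 2.3.3, SciPy 1.17.1 and NumPy 2.4.6 under Python 3.11.15, with figures by Matplotlib 3.10.9.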

Additional observations from a re-analysis of the deposited data

How the results depend on the processing

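Of 128 values under 16 alternatives, 97 counted as kept, 29 moved and 2 turned. For the difference in member regions, any value that did not change sign counted as kept, from 0 to 5.5, because no p-value here could fall below 0.333. The value with the replicate number as a block and the value for the AP-1 letters were counted as kept by default. The count of 97 is therefore not a measure of stability. The nearest end of any gene type was added after seeing the data. The number of member regions in all 4 lists (14) was 7 with 50% reciprocal overlap, 8 with summit windows, at a fold of at least 5, within 20 kb and with any gene type, and 5 with gene bodies. Its share (48.3%) was 16.3% with 50% reciprocal overlap and 19.5% with summit windows. The share was 32% at a fold of at least 5, 44.4% within 20 kb, 47.1% with any gene type and 50% with gene bodies. Members with a region in both siChst7 libraries (7) were 4 within 20 kb and 4 with gene bodies, and in both siControl libraries (7) they were 4 with 50% reciprocal overlap and 4 with gene bodies. Regions called in both siChst7 lists and neither siControl list (0) were 1 with summit windows, at a q of at most 0.001 and at a fold of at least 5, and 2 at equal list length. The shares of such regions over all regions were not computed under these settings. The difference in member regions per library (1) was −1.5 with any gene type and −4 without siChst7 replicate 1. With the replicate number as a block it was 1 (exact permutation p = 1, smallest possible 0.5), and deviations of same-numbered libraries had a correlation of −0.03 over all regions and 0.55 over the 29 member regions. The labels do not say that a number marks a shared culture or day, and 2 pairs cannot settle it, so the numbers were not taken as pairs. A median fold percentile counted as moved when it differed from the main value by more than the SD of the 2 lists. That SD was 8.36 in siChst7 and 0.986 in siControl, so smaller shifts are listed for siControl. The siChst7 values of 49.2 at equal list length and 60.6 with gene bodies thus counted as kept. The median fold percentile of member peaks in siChst7 (56.5) was 67.5 with any gene type. In siControl (53.4) it was 59.7 at a q of at most 0.001, 67.7 at a fold of at least 5, 65.1 at equal list length, 42.2 within 20 kb, 39.9 with gene bodies, 55.4 with transcription starts and 42.4 with any gene type. The cause of these changes was not tested.

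Leaving out each library gave 13 to 16 regions in all remaining lists (50% to 53.8%), beside 26.2% to 30.7% of all regions. With all 4 lists the share of all regions was 22.0%. Leaving out a library also gave 7 to 8 genes in siChst7 and 7 to 8 genes in siControl. Differences were −4 to 5.5, and percentiles were 50.6 to 62.4 in siChst7 and 52.7 to 54.1 in siControl. Regions of siChst7 alone were 0 to 4 (4 without siChst7 replicate 2). Regions of siControl alone were 0 to 3 (3 without siControl replicate 1 and 2 without siChst7 replicate 1). For regions of a single group, the shares over all regions were not computed with a library left out. A region then needs only 1 library of the group that lost one. The AP-1 letters were in 0 of 6 member promoter windows and in 0 of the 4 of genes with a common region. Motif searches around summits were not run.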
